A study of Mus musculus with 4 samples.

Results

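Accessible chromatin was examined at 43 genes of the TGFβ superfamily pathway in mouse forelimb buds at E9.5 and E10.5. The genes comprise 16 ligands, 12 receptors, 6 Smads and 9 extracellular or intracellular modulators, of 22380 protein-coding genes in the annotation. An accessible region was assigned to a gene when its nearest protein-coding transcription start belonged to that gene, or when its centre was at most 2.5 kb from one of its own starts. This gave 173 of 42613 regions at E9.5 and 211 of 46765 regions at E10.5, and 0 regions were assigned to 2 listed genes. Assignment rests on position alone, and a region that lies nearest to a gene may act on another. The regions came from ATAC-seq, in which a transposase inserts sequencing adapters into open chromatin, of wild-type NMRI embryos. Each stage had 2 biological replicates of a forelimb bud pair from 1 embryo, and the authors merged the replicates of a stage into 1 list.

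Both groups carried no mutation and received no treatment. The E9.5 tissue, for which the protocol gives embryonic day 9.75, included the adjacent trunk, whereas the E10.5 labels name none, so that stage and trunk cannot be told apart. The tissue label at E10.5 also names hindlimb buds, whereas source and protocol name forelimb buds. With 1 merged list per stage, differences between stages could not be set against replicate error, and none was tested. Intervals are 95% Wilson intervals, which cover counting error and treat regions as independent. As these are bulk tissues, a larger share of cells with an open region and a more open region per cell cannot be told apart.

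TGFβ superfamily ligands are secreted dimers that bring together type I and type II serine/threonine kinase receptors. The type I receptor phosphorylates receptor Smads, of which Smad1, Smad5 and Smad9 serve mainly the BMP branch and Smad2 and Smad3 the TGFβ, activin and Nodal branch. Both branches use Smad4 as the common partner that enters the nucleus. In limb buds, BMPs act in the ectodermal ridge, in digit patterning and in interdigital cell death, and TGFβ, activin and GDF ligands act later in digit rays, joints and tendons.

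Promoter regions of limb mesenchyme markers (Prrx1, Tbx5, Fgf10, Msx1, Hand2, Lmx1b) were present in both lists for 6 of 6 genes. The ridge markers Fgf8, Dlx5, Dlx6 and Sp8 had such regions for 4 genes at E9.5 and 3 at E10.5, and the hindlimb markers Tbx4 and Pitx1 for 2 and 1. Among markers of other tissues, regions in both lists were present for 3 of 3 somite and muscle precursor genes, 2 of 3 neural tube genes, 1 of 4 endothelial genes and 1 of 3 blood genes. Of the endothelial genes, Kdr had a promoter region in both lists, and Cdh5, Pecam1 and Tek had none in either. Of the blood genes, Klf1 had one in both lists, and Gata1 and Hbb-b1 had none in either. Among all protein-coding genes, 61.3% had a promoter region in both lists. The part of trunk tissue in the differences given below was not tested.

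A region was called E9.5-only or E10.5-only when it had no overlap of 1 bp or more with the other list, and shared otherwise. A site missing from a list did not pass the authors' limits there and need not have been closed. At E9.5, 57 of 173 regions (32.9%, 26.4 to 40.3%) were E9.5-only, against 29.9% of all regions of that list. At E10.5, 88 of 211 regions (41.7%, 35.3 to 48.4%) were E10.5-only, against 35.0% of all regions. Without the receptors Bmpr1b and Acvr2a, left out after their counts were seen, the E10.5-only share of all genes was 62 of 170 (36.5%, 29.6 to 43.9%), and that of the receptors 12 of 34 (35.3%, 21.5 to 52.1%). By class, ligands had 35 E10.5-only regions of 72 (48.6%, 37.4 to 59.9%) and receptors 38 of 75 (50.7%, 39.6 to 61.7%), whereas Smads had 5 of 21 (23.8%, 10.6 to 45.1%) and modulators 10 of 43 (23.3%, 13.2 to 37.7%). The intervals of ligands and receptors lay above the 35.0% of all regions and those of Smads and modulators included it. With starts of all gene types, the intervals of ligands (44.8%, 32.7 to 57.5%) and receptors (44.4%, 30.9 to 58.8%) included it too. With the higher-scoring 50% of each list, the ligand interval (42.4%, 27.2 to 59.2%) included the 31.9% of all regions. The receptor interval (52.3%, 37.9 to 66.2%) lay above that share. With a reciprocal overlap of at least 50% as the criterion, the ligand and receptor intervals lay above the 39.3% of all regions. The modulator share was then 41.9%. At E9.5, the higher-scoring 50% of the lists gave an E9.5-only share of 20.3% for all 43 genes, against 25.9% of all regions. At E9.5 the classes lay closer together, with 16 of 51 regions (31.4%) for ligands, 17 of 54 (31.5%) for receptors, 10 of 26 (38.5%) for Smads and 14 of 42 (33.3%) for modulators. The interval of each class at E9.5 included the 29.9% of all regions.

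Counted by gene, 15 genes had more E10.5-only than E9.5-only regions, 10 had more E9.5-only regions and 18 had equal numbers, 16 of them with none in either list. Among all 16437 gene symbols with a region, 26.8% had more E10.5-only and 25.5% more E9.5-only regions. The listed genes had a median of 3 nearest regions in each list, against 1 for all protein-coding genes. Genes with more regions have more room for unequal numbers, so these shares are not a like comparison. Ligands were split 8 to 2 towards E10.5 and receptors 4 to 3, whereas 3 Smads had more E9.5-only regions and 1 had more E10.5-only regions. The modulators were split evenly, with 2 in each direction. The 88 E10.5-only regions were assigned to 19 genes, with 26 at Bmpr1b and Acvr2a and 41 at the 4 genes with most. The 57 E9.5-only regions were assigned to 24 genes, with 12 at Bmper and Ski and 20 at the 4 genes with most.

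**Figure D1:**
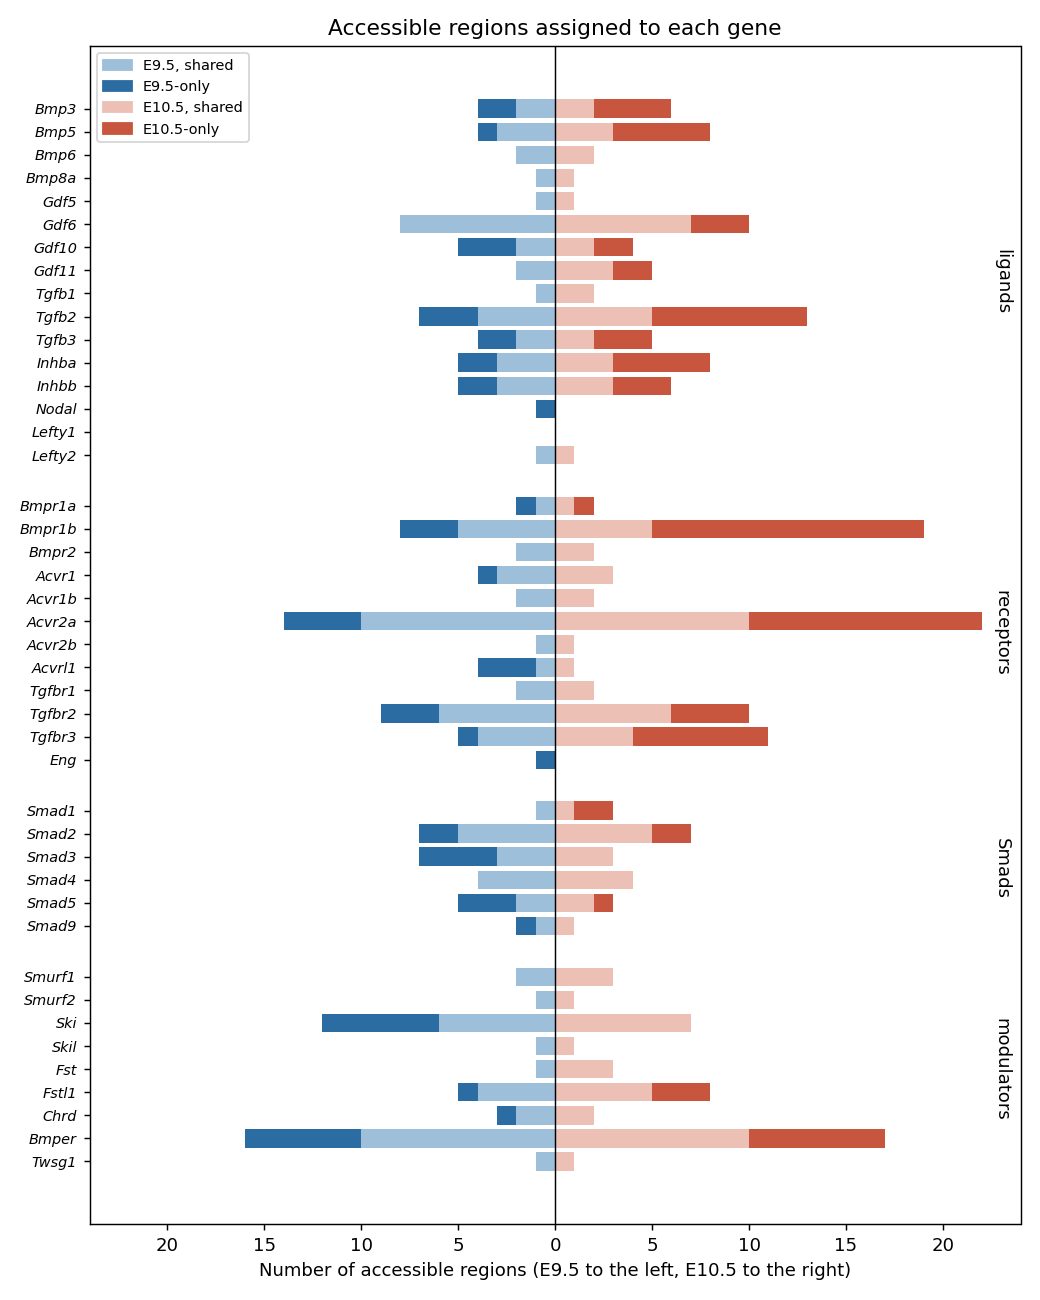
Number of accessible regions assigned to each of the 43 genes, with E9.5 bars to the left and E10.5 bars to the right of 0, dark for stage-specific and pale for shared regions. Bmpr1b (14), Acvr2a (12), Tgfb2 (8), Tgfbr3 and Bmper (7 each) have the most E10.5-only regions, and Ski and Bmper (6 each) the most E9.5-only regions; Lefty1 has none.

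Promoter regions, with a centre within 2.5 kb of a start of the gene, were present for 39 of the 43 genes in the E9.5 list and for 37 in the E10.5 list, 37 of them in both lists. Among all protein-coding genes the shares with such a region were 65.1% (E9.5), 62.5% (E10.5) and 61.3% (both lists). All 6 Smads and all 9 modulators had a promoter region in both lists. Those without any were Gdf5, a joint-forming ligand, the Nodal antagonists Lefty1 and Lefty2, and Eng, an endothelial co-receptor. Nodal, which acts in left-right patterning, had 1 E9.5-only promoter region with a score of 113, at percentile 13.5 of its list. Acvrl1, an endothelial type I receptor, likewise had an E9.5-only promoter region with a score of 106 (percentile 9.85). The score is the MACS p-value of the better replicate as its negative log10 times 10. The percentile ranks it within its own list from 0 to 100. A rank does not remove effects of depth, and the lists also differ in size and distal share. The part of these in differences of percentile between the stages was not tested. The E9.5-only promoter regions of Nodal and Acvrl1 were thus among the weak regions of the E9.5 list. That of Acvrl1 was centred in an intron, 2.22 kb downstream of the nearest of its starts. Of the promoter regions, 7 of 50 were E9.5-only and 1 of 51 E10.5-only, against 13.1% and 5.31% of all promoter regions. Of the 7, 4 were at the modulator Ski.

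Distal regions, beyond 2.5 kb, made up 123 of 173 regions at E9.5 (71.1%, 63.9 to 77.3%) and 160 of 211 at E10.5 (75.8%, 69.6 to 81.1%), above the 61.7% and 67.1% of all regions. With starts of all gene types, the distal shares were 64.0% (55.8 to 71.5%) and 68.3% (60.8 to 75.01%), whose intervals included those of all regions. Of the distal regions, 50 of 123 (40.7%) were E9.5-only and 87 of 160 (54.4%, 46.6 to 61.9%) E10.5-only, against 40.3% and 49.6% of all distal regions. Within the distal regions the E10.5-only share was 35 of 55 (63.6%, 50.4 to 75.1%) for ligands, 37 of 63 (58.7%, 46.4 to 70.0%) for receptors and 35.7% for both Smads (5 of 14) and modulators (10 of 28). The ligand interval lay above the 49.6% of all distal regions and the receptor interval included it. Introns held 42 and intergenic sequence 78 of the distal E9.5 regions, and 59 and 97 of the distal E10.5 regions. Median distances to the nearest start were 38.2 kb (E9.5) and 63.6 kb (E10.5), compared with 29.5 and 42.3 kb for all distal regions. Beyond 100 kb lay 36 distal E9.5 regions (15 of them E9.5-only) and 51 distal E10.5 regions (30 E10.5-only), or 41.7% and 58.8%, against 42.6% and 65.2% of all regions at that distance. Acvr2a alone held 4 of these 15 E9.5-only and 12 of these 30 E10.5-only regions, and had shared regions up to 812 kb away. At 2.5 to 10 kb, 16 of 27 E10.5 regions were E10.5-only (59.3%, 40.7 to 75.5%), against 33.6% of all. At 50 to 100 kb, 3 of 20 E9.5 regions were E9.5-only (interval 5.24 to 36.04%), against 38.8% of all. In the other distance bins, with limits at 10, 50 and 100 kb, the intervals included the share of all regions.

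The highest-scoring stage-specific region was picked in each class and list. The central 200 bases of 5 of them are printed as examples of distal regions called in a single list, read from mm9 on the plus strand. Capitals mark matches to the motifs searched further on, and 3 of the 5 have none.
Inhbb, E9.5-only, chr1:121285384-121285583: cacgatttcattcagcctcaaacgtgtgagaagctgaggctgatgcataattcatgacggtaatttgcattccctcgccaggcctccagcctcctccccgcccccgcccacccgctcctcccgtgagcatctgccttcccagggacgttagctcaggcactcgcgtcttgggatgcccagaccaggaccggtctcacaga
Bmpr1b, E9.5-only, chr3:141599719-141599918: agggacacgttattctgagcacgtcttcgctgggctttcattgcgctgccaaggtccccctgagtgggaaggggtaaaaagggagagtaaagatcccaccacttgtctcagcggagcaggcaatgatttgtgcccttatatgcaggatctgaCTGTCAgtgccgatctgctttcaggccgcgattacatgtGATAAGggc
Bmpr1b, E10.5-only, chr3:141901367-141901566: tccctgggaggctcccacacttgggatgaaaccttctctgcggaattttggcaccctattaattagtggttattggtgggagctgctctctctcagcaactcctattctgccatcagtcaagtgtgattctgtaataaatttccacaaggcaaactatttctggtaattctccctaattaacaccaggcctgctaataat
Smad3, E9.5-only, chr9:63630419-63630618: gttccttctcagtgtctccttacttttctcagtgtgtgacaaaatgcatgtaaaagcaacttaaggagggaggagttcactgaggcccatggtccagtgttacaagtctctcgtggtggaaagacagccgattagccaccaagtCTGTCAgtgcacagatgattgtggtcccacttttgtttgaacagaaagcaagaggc
Bmper, E10.5-only, chr9:22766888-22767087: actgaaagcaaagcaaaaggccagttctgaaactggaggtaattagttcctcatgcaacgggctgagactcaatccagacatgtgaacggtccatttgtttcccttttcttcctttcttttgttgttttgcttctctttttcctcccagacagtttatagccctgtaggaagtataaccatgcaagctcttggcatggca

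Among the ligands, Tgfb2 had the most regions, 7 at E9.5 and 13 at E10.5. Tgfb2 is 1 of 3 TGFβ isoforms and lies at chr1:188447065-188529871 on the minus strand. Its 8 E10.5-only regions were all distal, 7 of them downstream of the nearest start, at 6.86 to 254 kb, and their scores ranged from 82.0 to 327 with a median of 118. Most of these regions were therefore weak: the median distal E10.5-only region of all genes scored 154. The 3 E9.5-only regions of Tgfb2 scored 135 to 149.9. Its main promoter stayed in both lists, with scores of 1274 (percentile 84.7) at E9.5 and 561 (percentile 74.2) at E10.5.

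Gdf6, a ligand of joint and skeletal development at chr4:9771519-9789492, had 7 distal regions at E9.5, all shared, and 3 E10.5-only regions. The shared region in its coding exon scored 888 in the E9.5 list, the highest of its shared distal ligand regions, and 1076 in the E10.5 list. A shared region 64.0 kb upstream stood near the bottom of the E9.5 list (score 61.2) and at percentile 60.4 at E10.5 (score 332). Gdf6 was thus open at most of its distal regions at E9.5, and the regions added at E10.5 lay within 7.15 kb of its start.

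Inhba, which encodes the βA subunit of activins and inhibins, had 2 E9.5-only and 5 E10.5-only regions, all distal and downstream of a start. The 5 E10.5-only regions lay 6.34, 188, 612, 749.5 and 756 kb from it and scored 76.3 to 326. The 2 E9.5-only regions lay 3.2 and 18.7 kb from it. Both of its shared distal regions ranked higher at E10.5, at 219 and 256 at E9.5 against 500.4 and 626 at E10.5. Its promoter also ranked higher at E10.5 (percentile 86.5) than at E9.5 (76.3). Bmp5, a BMP ligand, had 1 E9.5-only and 5 E10.5-only regions with scores of 66.7 to 395, and its promoter stood at percentile 49.7 at E9.5 and 68.7 at E10.5. Both genes thus had a higher promoter rank and more stage-specific regions at E10.5. For Inhba the larger number rested on regions 188 kb or more from the start, where assignment is less certain.

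The βB subunit gene Inhbb had the highest-scoring E9.5-only ligand region, at chr1:121285026-121285942, with a score of 274 (percentile 51.6) and a distance of 33.3 kb. Even this region was of middle rank, whereas its promoter scored 624 at E9.5 and 398 at E10.5. Gdf11, which acts in axial patterning, had the highest-scoring shared distal ligand region at E10.5 (score 2201). That region was the part, 2.53 kb from the start, of a single E9.5 promoter region of 5100 bp (score 2991) that the E10.5 list divides into 2. Bmp3, an atypical ligand that opposes BMP signalling, had 2 E9.5-only regions, both intergenic and upstream, and 4 E10.5-only regions with scores of 139.9 to 346. Of these 4, 2 lay upstream in introns of another gene, 1700007G11Rik, among them the highest-scoring one. The other 2 lay in introns of Bmp3. For Bmp6, Bmp8a, Tgfb1, Gdf5 and Lefty2, 0 regions were stage-specific in either list.

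Receptors showed the strongest single-gene differences. Bmpr1b encodes the type I BMP receptor required for digit cartilage condensation and spans chr3:141500100-141832389 on the minus strand. It had 8 regions at E9.5, 3 of them E9.5-only, and 19 at E10.5, 14 of them E10.5-only. Of its 13 distal E10.5-only regions, 10 lay in introns and 3 in the intergenic sequence upstream, and their scores ranged from 139 to 1957 with a median of 338. The region at chr3:141900543-141902390, 69.1 kb upstream of the gene, scored 1957 (percentile 95.8) and was the highest-scoring E10.5-only region of any receptor. In introns, regions with scores of 881, 867, 605 and 531 followed, all at or above percentile 72.9. Unlike the E10.5-only regions of Tgfb2, these were strong ones. A shared region 43.5 kb upstream went from a score of 87.6 (percentile 3.60) to 518 (percentile 72.2).

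The reverse was seen at an internal start of Bmpr1b. The E9.5-only region at chr3:141599250-141600387, 5.33 kb from that start, scored 753 (percentile 74.3) and was the highest-scoring E9.5-only region of the receptors. The promoter region at the internal start scored 688 at E9.5 and 225 at E10.5, while that at the 5′ start had percentiles of 90.4 and 91.5. The same gene thus had strong regions of each stage within its introns. The printed cores also differ in base composition, with 51.0% GC in the 300 bases around the centre of the E9.5-only region and 42.3% in the E10.5-only region. Over its 13 distal E10.5-only regions, GC content ranged from 27.0 to 51.0%.

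Acvr2a, a type II receptor for activins and BMPs at chr2:48669629-48758789, had the most regions of all, 14 at E9.5 and 22 at E10.5, with 4 E9.5-only and 12 E10.5-only regions. All 12 were intergenic and upstream, at distances of 109 to 1786 kb, and 6 of them lay beyond 1 Mb, where assignment to the nearest start is least certain. Their scores ranged from 94.4 to 633 with a median of 198. Its 9 shared distal regions moved in rank in both directions. A region 320 kb upstream scored 299.5 at E9.5 and 1047 at E10.5, whereas the region at chr2:48393829-48395176, 275 kb upstream, scored 1146 (E9.5) and 199 (E10.5). The latter was the highest-scoring shared distal receptor region of the E9.5 list. The promoter differed little, at percentile 93.1 and 97.2.

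Tgfbr3, which encodes betaglycan, a co-receptor that presents TGFβ2, had 1 E9.5-only and 7 E10.5-only regions, 6 of the latter in introns, with scores of 81.4 to 743. A shared intronic region at chr5:107624343-107626018 scored 107 at E9.5 and 1243 at E10.5, a move from percentile 10.3 to 89.9 and the largest of the 73 shared distal regions. The TGFβ type II receptor gene Tgfbr2 was more balanced, with 3 E9.5-only and 4 E10.5-only regions. The 2 genes Acvrl1 and Eng had E9.5-only and no E10.5-only regions, all of them at percentile 40.8 or below. Acvrl1 had 3 E9.5-only regions with scores of 106 to 199.6 and none at E10.5, but its shared region 8.27 kb downstream of the nearest start scored 693 and 519.7. Eng had a single region, E9.5-only and intronic, with a score of 159. No region was stage-specific at Bmpr2, Acvr1b, Acvr2b or Tgfbr1, each of which had 1 or 2 regions per list.

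**Figure D2:**
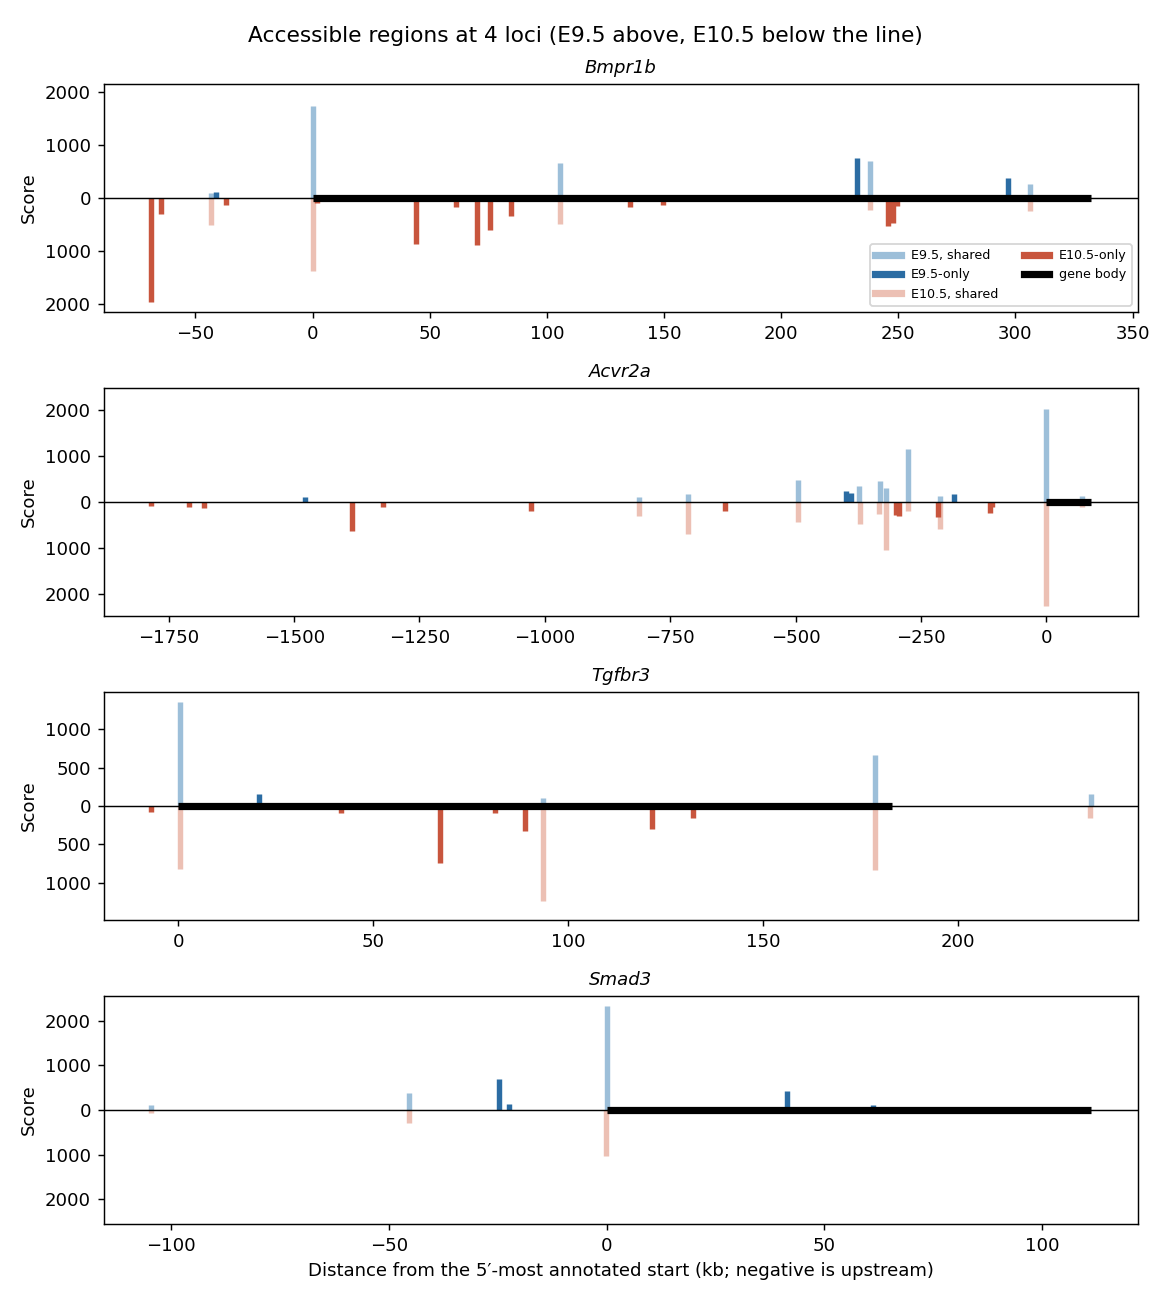
Accessible regions at Bmpr1b, Acvr2a, Tgfbr3 and Smad3, with the distance of the region centre from the 5′-most start in kb on the horizontal axis and the score on the vertical axis, E9.5 regions above and E10.5 regions below the line, dark for stage-specific and pale for shared regions. E10.5-only regions spread across the introns of Bmpr1b and Tgfbr3 and the upstream sequence of Acvr2a, whereas Smad3 has 4 E9.5-only regions and none at E10.5.

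All promoter regions of the 6 Smad genes were shared, and their distal regions numbered 19 of 26 at E9.5 and 14 of 21 in the E10.5 list. Promoter percentiles ranged from 71.3 (Smad9) to 98.8 (Smad2) at E9.5 and from 54.3 (Smad9) to 94.9 (Smad2) at E10.5. The E9.5 percentile was the higher one for 6 of 6 genes, against 58.3% of all gene symbols with promoter regions in both lists. The differences ranged from 0.34 points (Smad4) to 17.1 points (Smad9). The TGFβ and activin Smad gene Smad3 had 4 E9.5-only regions and none at E10.5. The strongest, at chr9:63629611-63631427 and 24.7 kb upstream of the nearest start, scored 697 (percentile 72.8). The other 3 scored down to 116, and both shared distal regions of Smad3 scored higher at E9.5 (385 and 109) than at E10.5 (291 and 69.2). All distal regions of Smad3 were thus ranked lower or missing at E10.5. Smad5 had 3 weak E9.5-only regions of 88.5 to 131 and 1 E10.5-only region of 161.

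Smad1 was the only Smad gene with more E10.5-only than E9.5-only regions, with 2 intronic regions of 77.7 and 254 against none. Smad2 had 2 stage-specific regions in each list, and its E10.5-only region 74.1 kb downstream of the nearest start had the highest score of the class at that stage (336). Smad4, the common partner, had 4 regions in each list, all shared. Its region 18.9 kb downstream scored 976 (E9.5) and 870.2 (E10.5), the highest among shared distal Smad regions in both lists.

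Of the modulators, Ski, which encodes a nuclear co-repressor of Smad complexes, had the clearest E9.5 pattern, with 12 regions at E9.5, 6 of them E9.5-only, and 7 at E10.5, all shared. Of the 6, 4 lay within 2.5 kb of a start and 5 of the 6 scored between 111 and 378. The exception was an intronic region at chr4:154563329-154564995, 1.76 kb from an internal start, with a score of 1114 (percentile 82.1), the highest of any E9.5-only region at the 43 genes. It formed an almost unbroken run with the E9.5-only regions chr4:154561050-154562100 and chr4:154562109-154563278, and each was counted separately. All 5 shared distal regions of Ski ranked lower at E10.5, including that 37.5 kb downstream of the nearest start with 976 at E9.5 and 274 at E10.5. Its main promoter scored 2472 and 1098. The related co-repressor gene Skil had 1 region, a promoter region in both lists at percentile 98.8 and 96.3.

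Bmper, which encodes a secreted BMP-binding protein, had 16 regions at E9.5 and 17 at E10.5, with 6 E9.5-only and 7 E10.5-only regions. Numbers were therefore nearly even, but the strong region changed. A shared region at chr9:22756571-22758180, 270 kb upstream, scored 107 (percentile 10.1) at E9.5 and 1085 (percentile 87.5) at E10.5. The highest-scoring E10.5-only modulator region, at chr9:22766490-22767486 with 257, lay beside it and its core is printed above. Fstl1, a secreted glycoprotein related to follistatin, had 1 E9.5-only and 3 E10.5-only regions. Chrd, a BMP antagonist, kept a promoter region in both lists, yet its score of 866 at the earlier stage compared with 114 at the later one. Smurf1 and Smurf2, ubiquitin ligases for Smads and receptors, Fst, an activin-binding inhibitor, and Twsg1, a BMP-binding protein, had no stage-specific region.

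The rank of the promoters gave a further comparison of the stages, using the best promoter region of each gene in each list. Of the 37 genes with a promoter region in both lists, 30 (81.1%) had the higher percentile at E9.5, against 58.3% of the 13673 gene symbols with such regions. The E9.5 and E10.5 median percentiles were 86.8 and 82.4, compared with 84.4 and 83.1 for all. Differences were mostly small, with a median of 5.14 percentile points. More than 20 points lower at E10.5 were 2 genes (5.41%), against 9.05% of all, namely Chrd (77.1 to 15.1) and Tgfb1 (78.4 to 43.6), and 0 genes were more than 20 points higher. The other direction was taken by Bmp5, Inhba, Tgfbr2, Acvr2a, Fstl1, Bmpr1b and Tgfb3, of which Bmp5 and Inhba differed by more than 10 points. At 7 genes (Gdf11, Tgfb1, Tgfb2, Smurf1, Ski, Fst and Fstl1) the E9.5 promoter region overlapped 2 or more E10.5 regions, each ranked separately. At Gdf11 the stronger E10.5 part (percentile 96.9) was classed as distal, so that 97.8 at E9.5 was set against 92.5. The part of such division in these ranks was not tested.

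**Figure D3:**
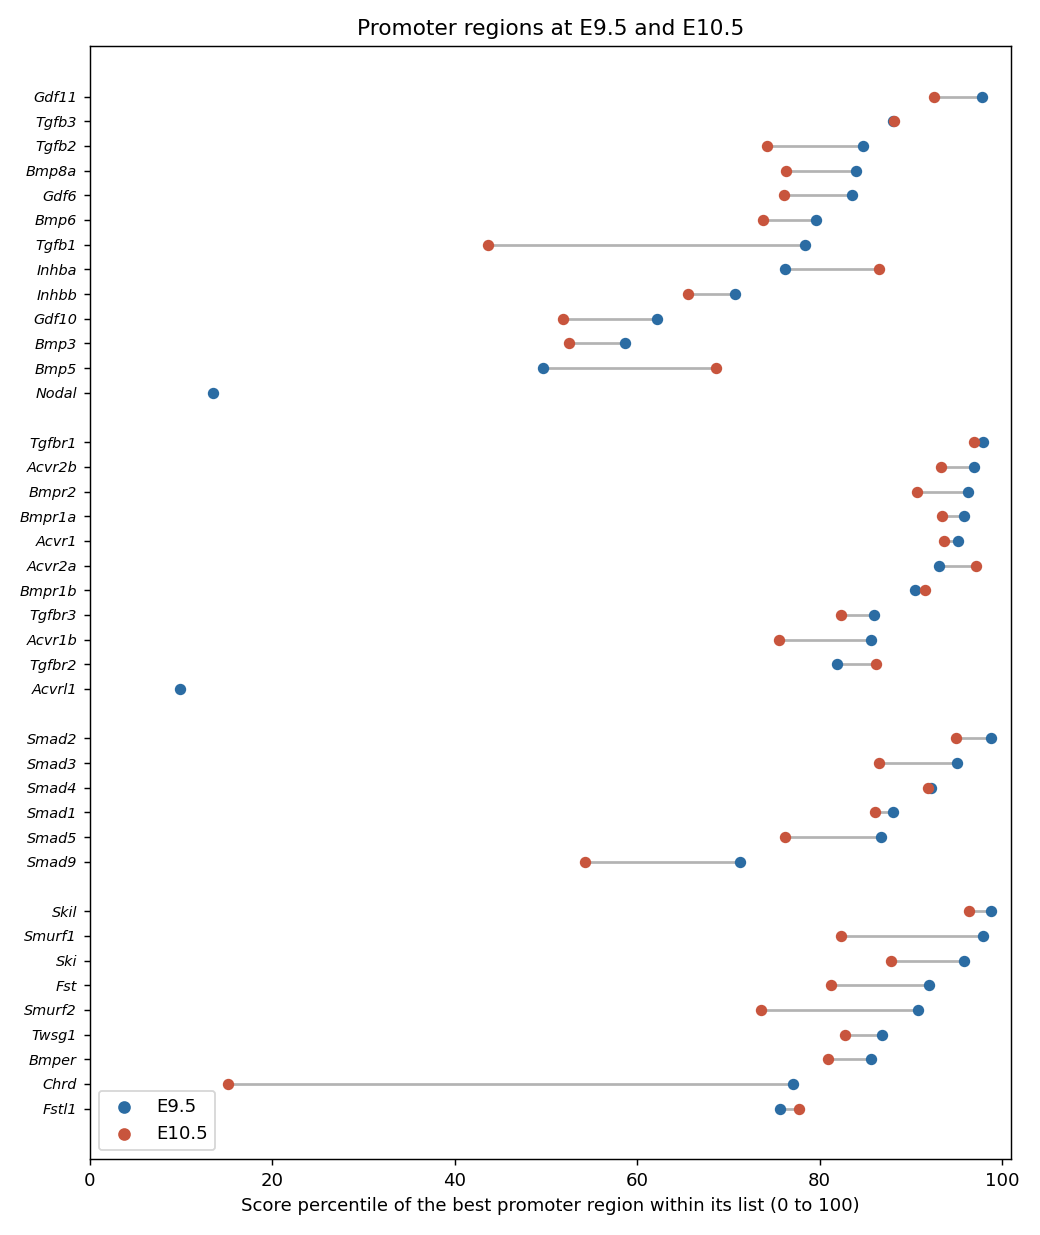
Score percentile of the best promoter region of each gene within the E9.5 and the E10.5 list, with a blue point for E9.5, a red point for E10.5 and a grey line between them. Most of the 37 genes lie slightly higher at E9.5; Chrd and Tgfb1 stand far lower at E10.5, and Bmp5 and Inhba stand higher.

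Median base composition differed between the distal E9.5-only and E10.5-only regions, while their ranges overlapped. The median GC content of the 300 bases around the centre was 51.2% for the 50 distal E9.5-only regions and 44.3% for the 87 distal E10.5-only regions, while shared distal regions had 51.7% and 52.3%. All distal regions of the lists behaved alike, with 51.0% and 44.0% for stage-specific regions and 50.7% for shared regions in both lists. Among member distal E10.5 regions below the median GC content of all distal regions of the list, 61 of 78 (78.2%, 67.8 to 85.9%) were E10.5-only, against 69.4% of all such regions. Above it, 26 of 82 (31.7%, 22.6 to 42.4%) were E10.5-only, against 30.04% of all. At E9.5 the corresponding shares of E9.5-only regions were 40.4 and 40.8%. Base composition therefore moved with the E10.5-only share and hardly with the E9.5-only share; its part in the result was not tested.

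**Figure D4:**
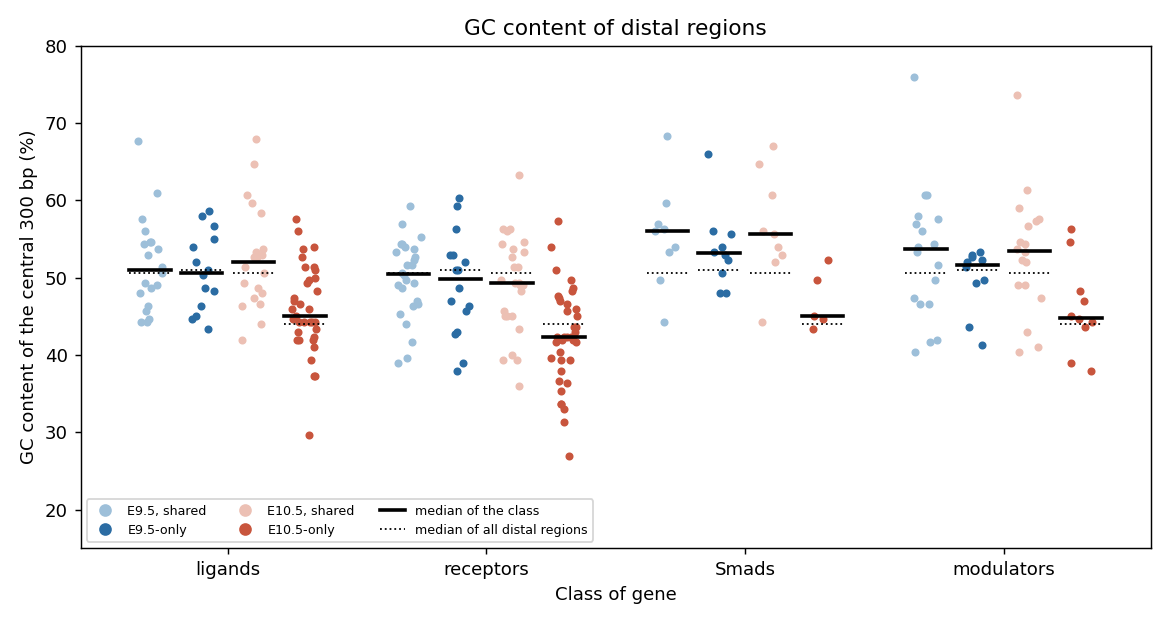
GC content in percent of the 300 bases around the centre of each distal region of the 43 genes, by class, stage and stage-specific or shared, with each point a region, the solid line the median of the class and the dotted line that of all distal regions. The E10.5-only regions have the lowest median in every class, 42.3% for receptors and 45% for ligands, and their range overlaps that of the other regions.

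Shared distal regions were compared by the percentile of each of the 73 E9.5 regions and of its best E10.5 partner. The E10.5 percentile was the higher one for 47 of 73 (64.4%), against 58.2% of all 15693 shared distal E9.5 regions, and the median difference was 5.12 points, against 4.04. Ligand regions were higher at E10.5 in 17 of 20 pairs, receptor regions in 17 of 26, Smad regions in 4 of 9 and modulator regions in 9 of 18. More than 30 points higher at E10.5 were 13 regions (17.8%), against 14.7% of all. More than 30 points lower were 2 regions (2.74%), against 8.13% of all: the Acvr2a region 275 kb upstream and an intronic Tgfbr2 region with scores of 218 and 104. Besides the regions of Tgfbr3, Bmper, Bmpr1b and Gdf6 given above, a region 26.7 kb upstream of Gdf10 scored 148 at E9.5 and 614 at E10.5. Differences between the classes were not tested.

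**Figure D5:**
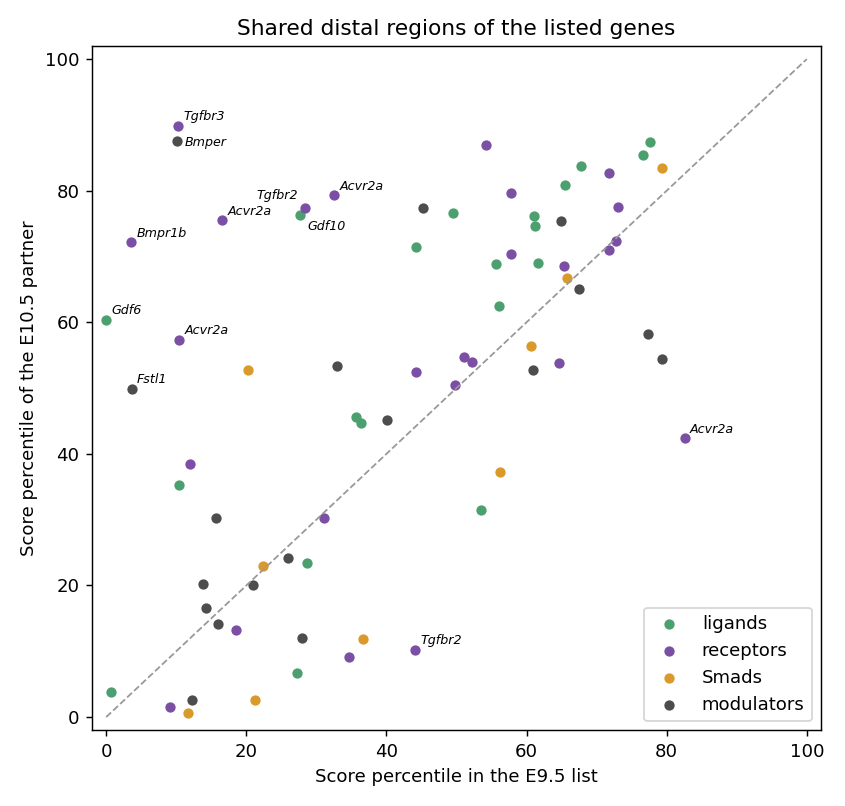
Score percentile at E9.5 (horizontal) and of the best overlapping region at E10.5 (vertical) for the 73 shared distal regions, coloured by class, with the line of equal percentile. Points above the line, 47 of 73, rank higher at E10.5; the farthest above it belong to Tgfbr3, Bmper, Bmpr1b and Gdf6, and the farthest below it to Acvr2a.

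The 300 bases around each centre were searched on both strands for GTCTAGAC, the palindrome bound by Smad3 and Smad4, for the GC-rich Smad site GGCGCC, for TGACAG, a core bound by TGIF and PKNOX factors, and for the GATA core GATAAG. The palindrome was rare, in 0 of 50 distal E9.5-only and 2 of 87 distal E10.5-only regions, and in 1 of 73 shared distal regions of each list, against 0.299 to 0.359% of all distal regions. The E9.5-only count of 0 allows a share of up to 7.13% by its interval. Windows of 60 bases around the palindrome, in capitals, are printed at Fstl1 and Tgfb2 because it is the pathway's own binding sequence, and they were picked after the matches were seen. The Fstl1 window lies in an intron and in both lists, and the Tgfb2 window in an intergenic E10.5-only region 254 kb downstream, with a score of 183.
Fstl1, chr16:37788653-37788712: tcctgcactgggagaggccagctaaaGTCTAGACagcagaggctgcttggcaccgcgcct
Tgfb2, chr1:188204115-188204174: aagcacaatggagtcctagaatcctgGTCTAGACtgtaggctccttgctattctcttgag

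The GC-rich site was in 20 of 43 shared promoter regions at E9.5 (46.5%, 32.5 to 61.1%) and 18 of 50 at E10.5 (36.0%, 24.1 to 49.9%), against 25.7% and 25.8% of all shared promoter regions. Member promoters also had a high median GC content, 71.0% at E9.5 against 64.7% for all shared promoters, and the part of base composition in this count was not tested. In distal E10.5-only regions it was in 2 of 87, against 1.96% of all. TGACAG was in 0 of 43 shared E9.5 promoter regions (0 to 8.20%) and 3 of 50 shared E10.5 promoter regions (2.06 to 16.2%), against 14.4% and 14.3% of all. The E9.5 interval lay below the share of all and the E10.5 interval included it. The part of base composition in these counts was not tested either. The same motif was in 12 of 50 (24%) distal E9.5-only and 15 of 87 (17.2%) distal E10.5-only regions, against 27.8% and 24.3%. GATAAG was in 4 of 50 (8.0%) and 8 of 87 (9.20%), against 10.6% and 7.06%. For the distal regions, the intervals of both motifs included the share of all regions. A match is a stretch of letters and was not tested for binding.

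A second set of 28 pathway genes, among them Bmp2, Bmp4, Bmp7, Smad6, Smad7, Grem1, Nog and the Ltbp genes, gave the context of the pathway. It held 146 regions at E9.5, 43 of them E9.5-only (29.5%, 22.7 to 37.3%), and 163 at E10.5, 56 of them E10.5-only (34.4%, 27.5 to 41.9%), close to the 29.9% and 35.0% of all regions. A promoter region was present for 24 of the 28 genes at E9.5 and for 21 of them at E10.5. More E9.5-only regions were found at 9 and more E10.5-only regions at 11. The intervals of this set and of the 43 genes overlapped at both stages.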

How the data were processed

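Accessible regions of 2 stages were analysed, with 2 replicates per stage that the authors merged into 1 list. Reads were mapped by the authors to mm9 using Bowtie (version 1.1.0 in the submitters' processing notes), with up to 2 mismatches. They called regions with MACS (version 1.4 in those notes) and combined replicates with MSPC, with stringent and weak p-values of 1e-10 and 1e-06. The deposited score is, per the authors' files and methods, 10 times the negative log10 of the best p-value; it grows with depth and has a limit near 3100. Read totals were not used here, so depth is unknown.

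Genes and locations came from GENCODE vM1 on NCBIM37, whose chromosome lengths match mm9, with 70064 starts of 22380 protein-coding genes; 0 regions ran past a chromosome end. Overlap, nearest starts, ranks, GC content and motifs were computed in Python 3.11.15 with pandas 2.3.3, numpy 2.4.6 and pysam 0.24.0, and sequences were read with samtools 1.23.1; figures used matplotlib 3.10.9. The assignment was tested on simulated regions with known genes. The 43 genes, the classes, the further pathway genes, markers and motifs were chosen with earlier results of these data known. Named were, in each class, the 3 genes with most regions, genes with at least 3 more stage-specific regions in a list, genes without a promoter region, and the highest-scoring stage-specific and shared distal regions; other genes were named after their values were seen. Some sequences and regions that this rule picks are not reported here. No test was run, because regions of 1 list are not replicates. Alternatives covered score limits, start sets, overlap and distance limits.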

Additional observations from a re-analysis of the deposited data

How the results depend on the processing

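No paired analysis was possible because the replicates were merged into 1 list per stage, and for the same reason leaving out a replicate was not run. Of 122 alternative values, 88 stayed within the interval or within 1.5 times of the reported value, and 34 moved; the causes were not tested. Some shares changed sides of the share of all regions, which is given in parentheses. With the higher-scoring 50% of each list, 79 E9.5 and 111 E10.5 regions were left, distal shares were 49.4% and 64.9% (38.7% and 49.2%), and the E9.5-only share (25.9%) was below that of all regions, at 20.3% for all genes, 17.4% for ligands and 16.0% for receptors. With those regions set against the whole other list, the E9.5-only share was 12.7% (10.8%), 8.70% for ligands, 8.0% for receptors and 16.7% for modulators, and the E10.5-only share was 25.2% (18.1%), 27.3% for ligands, 34.1% for receptors and 9.09% for modulators.

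Among distal regions only, the E9.5-only share was 40.7% (40.3%), and the E10.5-only share (49.6%) 54.4% for all genes and 63.6% for ligands. In distal regions of low GC content the E9.5-only share was 40.4% (39.8%), and the E10.5-only share (69.4%) 78.2% for all genes, 84.6% for ligands, 76.3% for receptors, 75.0% for Smads and 70.0% for modulators. At high GC content these shares were 40.8% (40.7%) and 31.7% (30.04%) for all genes and the E10.5-only share 32.0% for receptors. A reciprocal overlap of at least 50% gave modulators an E10.5-only share of 41.9% (39.3%), above and no longer below that of all regions. Starts of all gene types gave a distal share of 68.3% at E10.5 (67.1%), a promoter distance of 5 kb 63.8% and 69.3% (55.4% and 62.2%), and a limit of 100 kb 63.5% and 68.1% (55.9% and 59.1%). Chosen after seeing the data, the E10.5-only share without Bmpr1b and Acvr2a was 35.3% for receptors and 36.5% for all genes (35.0%).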

Other observations

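Some wide E9.5 regions corresponded to several E10.5 regions. At 7 genes (Gdf11, Tgfb1, Tgfb2, Smurf1, Ski, Fst and Fstl1) a promoter region of the E9.5 list overlapped 2 or more E10.5 regions, with 3 at Fst, where the E9.5 region was 5558 bp wide. In the whole E9.5 list 653 regions (1.53%) did so. The reverse was seen at 1 of the 43 genes, Gdf6, where an E10.5 promoter region of 4879 bp overlapped 2 E9.5 regions, and in 0.428% of the E10.5 list. How the peak caller divided wide regions was not tested.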
